A study of Mus musculus with 20 samples.

Results

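Coagulation and complement genes were followed in livers of mice given CMP013, a small molecule inhibitor of the protease BACE1. The set holds 40 genes for clotting factors, anticoagulants, proteins of fibrinolysis and complement proteins, each taken by a probe set whose annotated symbol is exactly that gene. It could be measured for 36 of the 40, by 48 probe sets, out of 18193 genes and 45037 probe sets on the array. Cpb2, C3 and Cfd had no probe set with that symbol, the only probe set of C4b also names C4a, and these 4 genes were not analysed here. Livers came from male mice, 9 weeks old at the start of dosing, in 4 groups of 5 animals: wild type (WT, PXR+/+, C57BL/6) and PXR-knockout (PXR-KO, PXR-/-, C57BL/6NTac in the source field and C57BL/6 in the strain field of the labels), each with vehicle (0 mg/kg) or with CMP013 (150 mg/kg) by oral gavage every 24 h. All animals were killed at 96 h, and RNA from each liver was hybridized to 1 Affymetrix Mouse430_2 array. The knockout removes PXR, the pregnane X receptor, a nuclear receptor that senses foreign compounds, from the whole animal, and genotype and substrain cannot be told apart.

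The liver makes most of the proteins that circulate to stop bleeding and to mark microbes. Clotting is a cascade of proteases that ends in thrombin, which turns fibrinogen into fibrin, while anticoagulant proteins hold it back and plasmin later dissolves the clot. Complement is a parallel cascade, started by the classical, lectin or alternative pathway and ending in a pore formed in a membrane by the terminal components. Hepatocytes secrete nearly all of these proteins, and their genes are typically driven by liver-enriched transcription factors such as HNF1, HNF4, FOXA and C/EBP.

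For every animal the value used is a log2 ratio, its probe set signal over the vehicle mean of its own genotype, so a value of 0 is the vehicle mean and a value of -1 is a halving. Levels of different genes, and of the genotypes without the compound, could not be compared on this scale. Array medians lay between -0.027 and 0.012. Each vehicle value is a ratio to the mean of its own group, which by itself pulls correlations between vehicle arrays below 0. They were below 0 over all probe sets except for replicates 3 and 4 of WT vehicle (0.11) and replicates 2 and 4 of PXR-KO vehicle (0.15). Results were therefore also computed without these 4 animals. Integrity numbers of the RNA, as the labels give them, were 9.3 to 10 in WT and 8.7 to 9.6 in PXR-KO mice, and their part in any difference between the genotypes was not tested. A gene is called, and said to rise or fall, where limma gave an adjusted p under 0.05 over all probe sets. A difference between the genotypes is always given as the response of WT mice less that of PXR-KO mice, and errors are standard errors of the fit, over 10 animals within a genotype and over 20 for a difference.

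In WT mice CMP013 lowered a large share of the set. Transcripts of 20 of 36 genes fell and those of 2 rose (C2 and Pros1), with 14 not called, whereas 8.01% of all measured genes fell and 9.71% rose. The largest decreases were those of F11 and C9, to 0.354 and 0.371 of the vehicle level, and the 18 other decreases reached between 0.526 (C8b) and 0.842 (Cfi) of it. The median log2 fold change over the 36 genes was -0.30, beside -0.0017 over all genes. In PXR-KO mice 2 genes fell (C9 and C8g) and none rose, against 2.15% and 2.48% of all genes, with a median of -0.034 beside -0.015. At an unadjusted p under 0.05, limma counted 8 of the 36 genes in PXR-KO mice, 5 lower and 3 higher. The share of all genes at that threshold was not computed. Counts at an unadjusted p, here and below, are therefore not read as results about a list. These are whole livers, in which fewer cells of a type and less RNA per cell cannot be told apart.

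**Figure D1:**
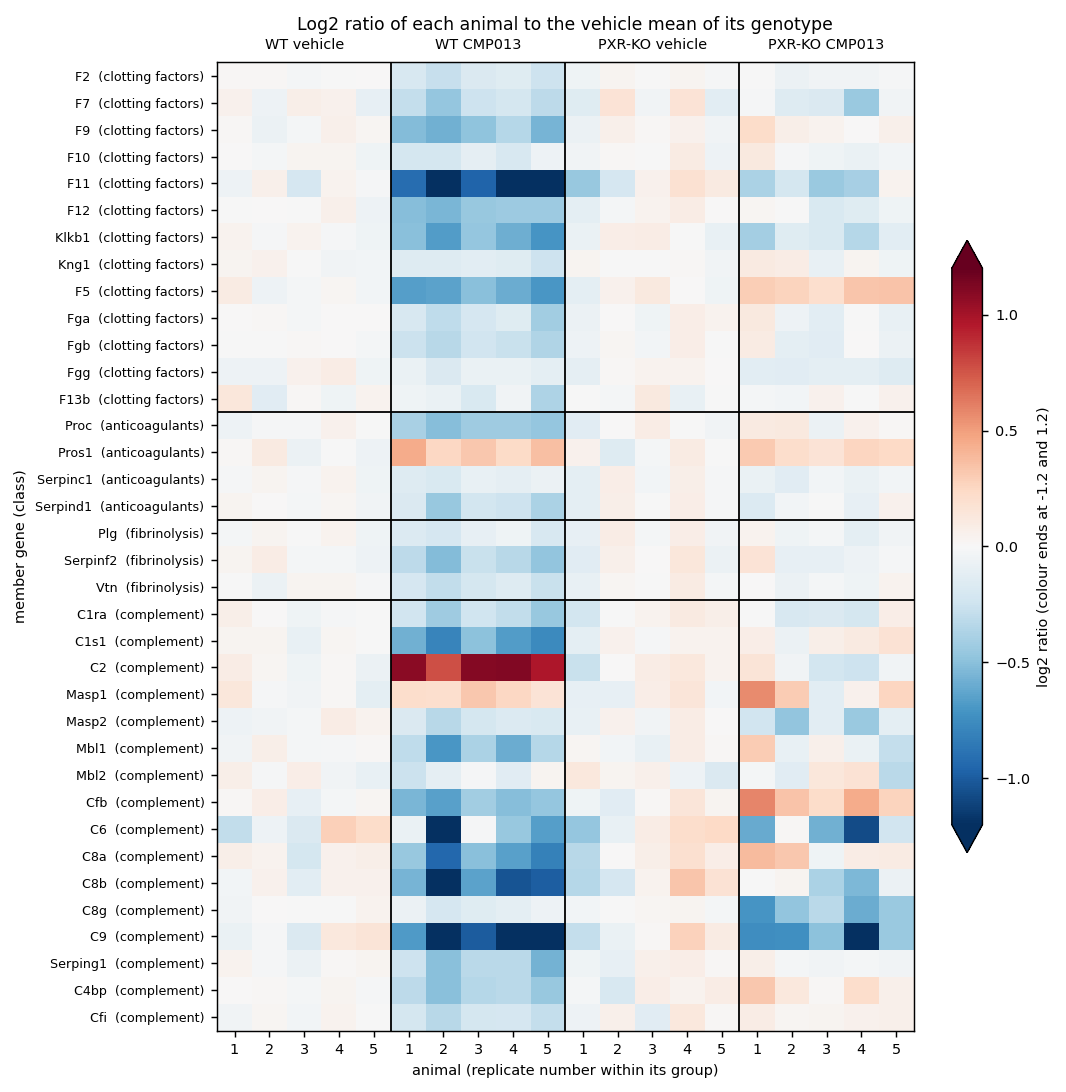
Log2 ratio of 36 genes (rows, by class) in 20 animals (columns, by group and replicate number), each relative to the vehicle mean of its genotype, with blue below and red above it and the colour scale ending at -1.2 and 1.2. The 5 WT CMP013 columns are blue in most rows, with red rows at C2, Pros1 and, more faintly, Masp1. The PXR-KO CMP013 columns are blue in all 5 animals at C8g and C9, among other rows.

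All 5 treated WT animals lay below all 5 vehicle animals at 30 of the 36 genes, where 9.04% of all genes did so. They lay above them at 3 (Pros1, C2 and Masp1, background 10.2%) and overlapped with them at 3 (F13b, Mbl2 and C6). In PXR-KO mice the groups overlapped at 28 genes. Treated PXR-KO animals lay below at 5 (Klkb1, Fgg, Masp2, C8g and C9, background 5.12%) and above at 3 (F5, Pros1 and Cfb, background 4.78%). A stricter count, of genes at which each of the 5 treated animals was at least 0.32 log2 units below the vehicle mean (the fold minimum of the study's methods), gave 11 in WT (background 5.21%) and 2 in PXR-KO mice (background 2.58%). Among the treated WT animals, replicate 2 was the lowest at 24 of the 36 genes and replicate 5 at 9, and among the treated PXR-KO animals replicate 1 was the highest at 19 and replicate 3 the lowest at 13.

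The WT count of 22 was 11 after the arrays were quantile normalized and 12 without the 4 vehicle animals named above, and the same 11 genes were called under all 11 alternative settings and with each animal left out: F5, F9, F11, F12, Klkb1, C1s1, C2, Cfb, C8a, C8b and C9 (C1s1 under the 10 that could test it, since its only probe set carries an s mark). The other 11 calls were each lost under at least 1 of them. Shares of all genes called under the alternative settings were not computed for any comparison. Whether a lower count is particular to this set therefore cannot be told. The PXR-KO calls held less firmly. Their number was 0 without the 4 vehicle animals (5 at an unadjusted p under 0.05 by limma) and 5 when all 4 groups shared 1 estimate of the spread, which then were Masp2 and C8g lower and F5, Pros1 and Cfb higher.

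**Figure D2:**
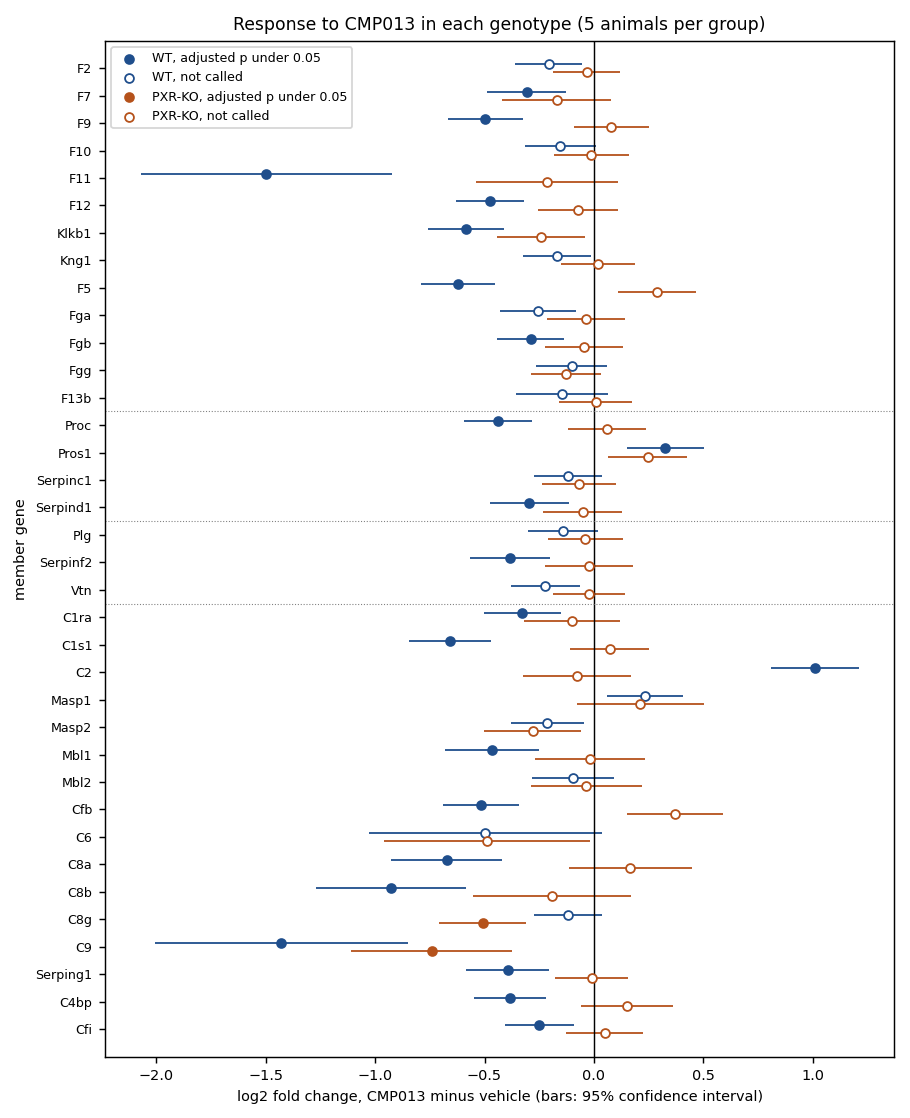
Log2 fold change of CMP013 against vehicle for 36 genes in WT (blue) and PXR-KO mice (orange), with 95% confidence intervals and filled points for an adjusted p under 0.05. In WT mice 33 of 36 points lie below 0, in PXR-KO mice 24, and at F5 and Cfb the intervals of the genotypes lie on opposite sides of 0.

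Among the vitamin K dependent proteases of clotting (F2, F7, F9 and F10), F9 and F7 fell in WT mice and none passed the test in PXR-KO mice. F9, which activates F10 on the platelet surface and is lost in haemophilia B, had log2 ratios of -0.52, -0.58, -0.49, -0.35 and -0.55 in WT mice with CMP013 and of 0.015, -0.069, -0.022, 0.058 and 0.020 with vehicle. In PXR-KO mice its ratios were 0.22, 0.073, 0.040, 0.0089 and 0.062 with CMP013 and -0.070, 0.057, 0.015, 0.048 and -0.047 with vehicle. WT groups were far apart and PXR-KO groups overlapped. The log2 fold change of F9 was -0.50 ± 0.077 (SE, adjusted p = 0.00239) in WT and 0.080 ± 0.078 (SE, adjusted p = 0.611) in PXR-KO mice, and the difference between them was -0.58 ± 0.093 (SE, adjusted p = 0.000575). F7, the protease that pairs with tissue factor to start clotting, fell by less, with ratios of -0.46 to -0.21 in treated and -0.094 to 0.068 in vehicle WT mice (-0.31 ± 0.081 SE, adjusted p = 0.0316). Its call was lost when replicate 1, 3 or 4 of the WT vehicle group or any of the treated WT animals but replicate 4 was left out (adjusted p 0.0422 to 0.0773 over the 10 cases), and the responses of the genotypes were not shown to differ (-0.14, adjusted p = 0.556). Prothrombin (F2) and F10, the protease that converts it to thrombin, were not called in WT mice, with log2 fold changes of -0.21 (adjusted p = 0.077) and -0.15 (adjusted p = 0.203). For F10, the other 2 probe sets read 0.037 and 0.087, neither of them called.

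The contact system, in which F12 and prekallikrein (Klkb1), held by kininogen (Kng1), activate each other and F12 then activates F11, held the largest change of the set. F11 had log2 ratios of -0.92, -2.17, -0.96, -1.44 and -2.17 in treated WT mice and of -0.057, 0.064, -0.21, 0.044 and -0.011 in their vehicle animals. PXR-KO values were -0.38, -0.21, -0.45, -0.40 and 0.042 with CMP013 and -0.45, -0.20, 0.047, 0.18 and 0.11 with vehicle. Replicates 2 and 5 of the treated WT group were lowest and replicates 1 and 3 least changed, and the group was spread widely while staying clear of the vehicle group. This made a log2 fold change of -1.50 ± 0.26 (SE, adjusted p = 0.00416) in WT mice, against -0.21 ± 0.15 (SE, adjusted p = 0.447) in PXR-KO mice, with a difference of -1.28 ± 0.30 (SE, adjusted p = 0.0106). The call of that difference was lost with quantile normalization and without the 4 vehicle animals (limma, adjusted p up to 0.0636).

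Klkb1, which lies next to F11 on chromosome 8 (RefSeq, GRCm38.p6), moved in the same direction with less spread. Its WT ratios were -0.50, -0.67, -0.47, -0.58 and -0.70 with CMP013 and 0.046, -0.014, 0.039, -0.014 and -0.056 with vehicle. PXR-KO mice had ratios of -0.41, -0.14, -0.19, -0.34 and -0.13 after the compound and -0.077, 0.080, 0.090, -0.0050 and -0.090 without it. Here the treated animals lay below the vehicle animals in both genotypes. Only the WT response was called (-0.59 ± 0.079 SE, adjusted p = 0.00114), while in PXR-KO mice it was -0.24 ± 0.090 (SE, adjusted p = 0.17). The difference of -0.34 ± 0.11 (SE, adjusted p = 0.045) was called, and that call was lost in 14 of 20 cases with 1 animal left out, all except those without WT CMP013 replicates 1 and 3, PXR-KO vehicle replicates 2 and 3 and PXR-KO CMP013 replicates 1 and 4 (adjusted p 0.0256 to 0.085).

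F12 had closely grouped ratios of -0.51, -0.55, -0.46, -0.43 and -0.44 in treated WT mice and -0.0029, 0.0019, -0.0080, 0.057 and -0.057 in WT vehicle mice. Those of PXR-KO mice were 0.027, -0.0058, -0.18, -0.15 and -0.051 with CMP013 and -0.11, -0.027, 0.040, 0.090 and 0.0091 with vehicle. The WT groups stood well apart and the PXR-KO groups overlapped. Fold changes of F12 were -0.48 ± 0.070 (SE, adjusted p = 0.00186) and -0.072 ± 0.082 (SE, adjusted p = 0.671) in WT and PXR-KO mice, with a difference of -0.40 ± 0.091 (SE, adjusted p = 0.00766). As at F11, the call of the difference was lost with quantile normalization and without the 4 vehicle animals (limma, adjusted p up to 0.222). Kng1, whose gene has a close paralog in Kng2 that could share its probes, was not called in WT mice (-0.17, adjusted p = 0.149, second probe set -0.23, adjusted p = 0.0617).

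Activated F10 works with its cofactor F5, and thrombin then acts on the 3 fibrinogen chains. Values of F5 had opposite signs in the treated groups of the genotypes. WT ratios of F5 were -0.66, -0.65, -0.50, -0.60 and -0.70 with CMP013 and 0.10, -0.061, -0.028, 0.021 and -0.031 with vehicle. In PXR-KO mice they were 0.29, 0.27, 0.20, 0.34 and 0.34 with CMP013 and -0.12, 0.052, 0.11, 0.0025 and -0.048 with vehicle. Treated animals lay below all vehicle animals in WT and above all of them in PXR-KO mice. F5 fell in WT mice (-0.62 ± 0.076 SE, adjusted p = 0.000698), the PXR-KO value of 0.29 ± 0.079 (SE, adjusted p = 0.0773) was not called, and the difference of -0.91 ± 0.094 (SE, adjusted p = 7.11e-06) had the smallest adjusted p of any difference in the set. A second probe set of F5 gave -0.52 (adjusted p = 0.00296) in WT mice, 0.22 (adjusted p = 0.183) in PXR-KO mice and a difference of -0.74 (adjusted p = 0.000187).

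The fibrinogen genes Fga, Fgb and Fgg lie side by side on chromosome 3, and of these Fgb was called in WT mice. Its ratios were -0.36 to -0.23 in treated and -0.020 to 0.016 in vehicle animals (-0.29 ± 0.069 SE, adjusted p = 0.0201), a call lost without WT vehicle replicate 3 (adjusted p = 0.0513). Fga and Fgg read -0.25 (adjusted p = 0.0573) and -0.10 (adjusted p = 0.425), with every treated WT animal below the vehicle animals for both genes. F13b, the carrier subunit of the enzyme that cross-links fibrin, overlapped between the groups (-0.15, adjusted p = 0.363). None of the 4 was shown to differ between the genotypes after adjustment (differences -0.25 to 0.029, adjusted p 0.0845 to 0.870), although the 95% confidence intervals of Fgb (-0.43 to -0.060) and Fga (-0.42 to -0.014) lay below 0.

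**Figure D3:**
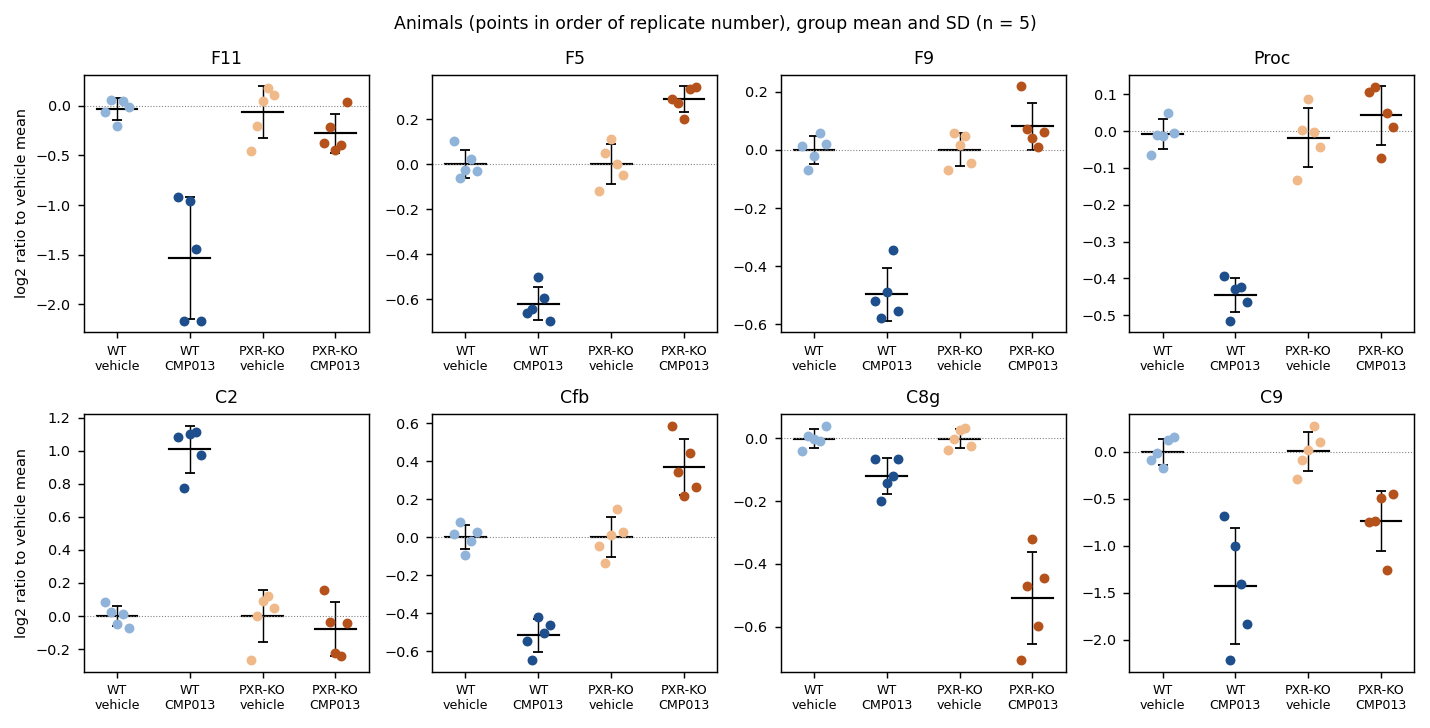
Log2 ratios of 8 genes in the 4 groups (5 points per group, 1 per animal, with the mean and SD), each panel on its own axis. F11, F9 and Proc are low in treated WT mice and overlap between the PXR-KO groups, F5 and Cfb lie on opposite sides of 0 in the treated groups, C2 is high in treated WT mice, C8g is lowest in treated PXR-KO mice and C9 is low in both.

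Upstream sequences were available in the RefSeq table for 28 of the 36 genes, and those of 6 genes that fell in WT mice are printed. They were chosen because each holds a match to a short motif of a liver-enriched factor and because they include the neighbours F11 and Klkb1 and the neighbours C8a and C8b, so they do not stand for the set. F5, with a larger decrease than F9, and C8g held none of the motifs searched. Each is the 250 bases before the annotated start (GRCm38.p6), read 5′ to 3′ along the gene's strand: F9 at chrX:59999214-59999463 (plus strand), F11 at chr8:45262032-45262281 (minus), Klkb1 at chr8:45294836-45295085 (minus), C8a at chr4:104876399-104876648 (minus), C8b at chr4:104766067-104766316 (plus) and C9 at chr15:6445096-6445345 (plus). Capitals mark matches, on either strand, to a C/EBP site (TTNNGCAA), an HNF1 half-site (GTTAAT) or a FOXA site (TGTTTAC), and no match overlaps another.
F9: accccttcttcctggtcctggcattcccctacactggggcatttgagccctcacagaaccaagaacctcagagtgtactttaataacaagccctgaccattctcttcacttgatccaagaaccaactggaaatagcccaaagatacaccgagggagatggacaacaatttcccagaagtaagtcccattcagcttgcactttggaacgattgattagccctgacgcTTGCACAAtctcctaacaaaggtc
F11: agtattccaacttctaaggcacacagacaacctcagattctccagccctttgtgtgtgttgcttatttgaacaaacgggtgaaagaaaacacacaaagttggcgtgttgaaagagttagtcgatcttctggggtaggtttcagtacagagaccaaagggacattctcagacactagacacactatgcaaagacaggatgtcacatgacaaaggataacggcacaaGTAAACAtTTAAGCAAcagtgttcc
Klkb1: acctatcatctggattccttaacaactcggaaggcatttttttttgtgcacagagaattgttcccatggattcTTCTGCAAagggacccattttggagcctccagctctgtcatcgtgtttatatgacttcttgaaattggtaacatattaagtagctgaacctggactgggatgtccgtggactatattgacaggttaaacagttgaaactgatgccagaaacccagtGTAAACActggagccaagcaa
C8a: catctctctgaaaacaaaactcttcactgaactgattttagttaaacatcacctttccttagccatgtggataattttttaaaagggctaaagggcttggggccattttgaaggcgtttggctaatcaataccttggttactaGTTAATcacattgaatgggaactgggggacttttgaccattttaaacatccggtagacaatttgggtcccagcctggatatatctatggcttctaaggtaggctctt
C8b: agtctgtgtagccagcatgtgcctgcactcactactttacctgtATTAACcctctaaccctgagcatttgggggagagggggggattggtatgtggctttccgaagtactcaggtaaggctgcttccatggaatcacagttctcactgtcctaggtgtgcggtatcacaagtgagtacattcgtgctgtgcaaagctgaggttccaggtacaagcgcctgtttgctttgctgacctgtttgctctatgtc
C9: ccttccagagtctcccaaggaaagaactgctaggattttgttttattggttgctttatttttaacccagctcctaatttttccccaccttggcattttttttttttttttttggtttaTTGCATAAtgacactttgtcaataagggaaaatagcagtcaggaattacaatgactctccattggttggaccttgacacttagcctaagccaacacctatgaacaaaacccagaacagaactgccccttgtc

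F11 and Klkb1 each held 1 match to the C/EBP and 1 to the FOXA letters, F9 and C9 held 1 to the C/EBP letters, and C8a and C8b held 1 HNF1 half-site each. Over all 28 genes with a sequence the HNF1 half-site was present at 8 (28.6%), beside 7.49% of 27025 genes with a window of the same length. Those 27025 are all genes of the promoter table and not the 18193 measured genes. The base composition of the windows was not matched, so its part in these shares was not tested. The C/EBP letters were present at 7 of 28 genes (25% beside 10.8%) and the FOXA letters at 2 (7.14% beside 3.54%). A STAT site (TTCNNNGAA) was present at 6 (21.4% beside 8.13%), and a core of the HNF4 site (CAAAGTCC) at 0 of 28 beside 1.38%. Among the printed sequences F9 and C8a also held 1 STAT site each, which is not in capitals. Of these 28 genes, 16 fell in WT mice. Among the 16, the HNF1 half-site was present at 5, the C/EBP letters at 6 and the FOXA letters at 2. The STAT site was present at 3 of the 16 and the HNF4 core at 0. Whether any of these letters go with a decrease was not tested. A gene was counted where any of its windows held the letters, both strands were read, and a match is a description of the letters and not of binding.

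Anticoagulant genes did not move together. Protein C (Proc), which cuts the activated forms of F5 and F8, fell in WT mice, while protein S (Pros1), its cofactor, rose. Proc had ratios of -0.39, -0.51, -0.43, -0.42 and -0.47 in treated WT mice and -0.064, -0.010, -0.013, 0.050 and -0.0043 in vehicle mice. Its values in PXR-KO mice were 0.11, 0.12, -0.074, 0.049 and 0.010 with CMP013 and -0.13, 0.0042, 0.086, -0.0031 and -0.043 with vehicle. A gap separated the WT groups and the PXR-KO groups overlapped, with fold changes of -0.44 ± 0.070 (SE, adjusted p = 0.00282) and 0.060 ± 0.081 (SE, adjusted p = 0.724) and a difference of -0.50 ± 0.089 (SE, adjusted p = 0.0014). Pros1, described further because it opposed Proc and chosen after its values were seen, had ratios of 0.44, 0.25, 0.33, 0.23 and 0.36 in treated and 0.012, 0.11, -0.069, -0.0076 and -0.059 in vehicle WT mice. In PXR-KO mice the ratios were 0.31, 0.21, 0.16, 0.26 and 0.24 with CMP013 and 0.054, -0.16, -0.025, 0.10 and -0.0067 with vehicle. Treated animals lay above vehicle animals in both genotypes. The WT rise of 0.33 ± 0.079 (SE, adjusted p = 0.0216) was called and was lost without WT vehicle replicate 3 or 5 (adjusted p 0.0245 to 0.0573 over the 10 cases), the PXR-KO value was 0.25 ± 0.081 (SE, adjusted p = 0.128), and the responses were not shown to differ (0.080, adjusted p = 0.659).

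Serpind1, the thrombin inhibitor heparin cofactor II, fell in WT mice (-0.30 ± 0.082 SE, adjusted p = 0.0375), with ratios of -0.45 to -0.17 in treated and -0.039 to 0.031 in vehicle animals. That call was lost without any 1 animal other than WT CMP013 replicate 1 (adjusted p 0.0393 to 0.0843). Antithrombin (Serpinc1), the main inhibitor of thrombin, was not called (-0.12, adjusted p = 0.312).

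Of the 3 measured genes of fibrinolysis, Serpinf2, which encodes the chief plasmin inhibitor of plasma, fell in WT mice. Serpinf2 ratios were -0.31, -0.52, -0.27, -0.33 and -0.47 in WT mice with CMP013 and 0.031, 0.087, -0.025, -0.024 and -0.062 with vehicle. PXR-KO animals had 0.17, -0.10, -0.10, -0.062 and -0.016 with the compound and -0.13, 0.061, 0.0053, 0.14 and -0.071 with vehicle. Only in the WT mice were the groups clear of each other. The fold change was -0.38 ± 0.082 (SE, adjusted p = 0.0121) in WT and -0.023 ± 0.091 (SE, adjusted p = 0.917) in PXR-KO mice. Their difference of -0.36 ± 0.11 (SE, adjusted p = 0.0413) was called, a call lost in 13 of 20 cases with 1 animal left out (each WT vehicle animal, WT CMP013 replicates 2 and 5, PXR-KO vehicle replicates 1, 3 and 5 and PXR-KO CMP013 replicates 1, 4 and 5, adjusted p 0.033 to 0.0728). Plasminogen (Plg) itself was not called (-0.14, adjusted p = 0.238). Vitronectin (Vtn), which stabilises the inhibitor of plasminogen activators, was not called by its chosen probe set (-0.22, adjusted p = 0.0643) but fell by its other one (-0.39, adjusted p = 0.0171, difference -0.37, adjusted p = 0.027).

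In the classical complement pathway the initiating proteases and C2 moved in opposite directions in WT mice. C1s1, the protease that cuts C4 and C2, had log2 ratios of -0.57, -0.79, -0.49, -0.67 and -0.77 with CMP013 and 0.035, 0.030, -0.084, 0.021 and -0.00010 with vehicle. Its PXR-KO values were 0.082, -0.073, 0.073, 0.11 and 0.17 with CMP013 and -0.11, 0.050, -0.012, 0.038 and 0.040 with vehicle. All treated WT animals were low, and the PXR-KO groups overlapped. C1s1 fell in WT mice (-0.66 ± 0.085 SE, adjusted p = 0.000921), was 0.072 ± 0.081 (SE, adjusted p = 0.665) in PXR-KO mice and differed between them by -0.73 ± 0.10 (SE, adjusted p = 0.000166). The only probe set of C1s1 carries the mark of probes shared with related transcripts, so its paralog C1s2 could contribute. C1ra, the neighbour of C1s1 on chromosome 6 and its partner protease, fell too (-0.33 ± 0.079 SE, adjusted p = 0.0211, ratios -0.45 to -0.23 against -0.049 to 0.069), a call lost without WT vehicle replicate 1 (adjusted p = 0.056).

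C2, the protease part of the classical and lectin C3 convertase, was the largest increase in the set. WT mice given CMP013 had ratios of 1.09, 0.78, 1.10, 1.11 and 0.97 and WT vehicle mice 0.085, 0.022, -0.048, 0.012 and -0.070. PXR-KO mice had 0.16, -0.039, -0.22, -0.24 and -0.042 with CMP013 and -0.27, 0.0030, 0.094, 0.12 and 0.046 with vehicle. The rise was present in all 5 treated WT animals, with replicate 2 lowest, and the PXR-KO groups overlapped. This was a log2 fold change of 1.01 ± 0.090 (SE, adjusted p = 0.000113), or 2.01 times the vehicle level, in WT mice, against -0.077 ± 0.11 (SE, adjusted p = 0.748) in PXR-KO mice, and the difference was 1.09 ± 0.14 (SE, adjusted p = 4.54e-05). Its other 2 probe sets gave 1.08 and 1.05 in WT mice and differences of 0.97 and 0.98, all called.

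Cfb, which encodes the matching protease of the alternative pathway and lies next to C2 on chromosome 17, went the other way in WT mice. Cfb ratios were -0.54, -0.65, -0.42, -0.51 and -0.46 in treated WT mice and 0.018, 0.080, -0.095, -0.022 and 0.025 in vehicle mice. In the knockout they were 0.59, 0.34, 0.22, 0.44 and 0.27 with CMP013 and -0.049, -0.14, 0.013, 0.15 and 0.029 with vehicle. Treated animals were below all vehicle animals in WT and above all of them in PXR-KO mice, as at F5. Cfb fell in WT mice (-0.52 ± 0.078 SE, adjusted p = 0.0021), its PXR-KO value of 0.37 ± 0.10 (SE, adjusted p = 0.0701) was not called, and the difference was -0.89 ± 0.11 (SE, adjusted p = 6.54e-05).

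In the lectin pathway Mbl1, a mannose-binding lectin that recognises microbial sugars, was the gene called. Mbl1 ratios were -0.31, -0.70, -0.38, -0.60 and -0.34 in treated and -0.041, 0.066, -0.025, -0.014 and 0.015 in vehicle WT mice. PXR-KO ratios were 0.31, -0.092, 0.060, -0.078 and -0.28 with CMP013 and 0.026, -0.033, -0.093, 0.093 and 0.010 with vehicle. Replicates 2 and 4 of the treated WT mice were lowest, and the PXR-KO groups overlapped widely. It fell in WT mice (-0.47 ± 0.10 SE, adjusted p = 0.0104), against -0.018 ± 0.11 (SE, adjusted p = 0.948) in PXR-KO mice. The difference of -0.45 ± 0.14 (SE, adjusted p = 0.0485) remained called only when WT CMP013 replicate 1 or 5 or PXR-KO CMP013 replicate 5 was the animal left out (adjusted p 0.0204 to 0.0831 over 20 cases). Mbl2, the other mannose-binding lectin of mice, was not called (-0.10, adjusted p = 0.518).

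The calls of the associated proteases Masp1 and Masp2 depended on the probe set, which was looked at after the values were seen. Masp1 was measured by 5 probe sets, and the chosen one, with the smallest spread among vehicle animals of the unmarked sets, was not called in WT mice (0.23, adjusted p = 0.0788). The 3 sets that may share probes with related transcripts fell in WT mice (-0.42, adjusted p = 0.0135, -0.77, adjusted p = 0.0019, and -0.52, adjusted p = 0.0326). In PXR-KO mice the 5 sets ranged from -0.60 to 0.30 and none was called. The same 3 marked sets read -0.44 (adjusted p = 0.0646), -0.60 (adjusted p = 0.0884) and -0.28 (adjusted p = 0.0888) there. The unmarked sets read 0.21 and 0.30. No set was called in the difference, where limma gave an unadjusted p of 0.129 or more. Masp2 was not called by its chosen set (-0.21, adjusted p = 0.0926) and fell by the other (-0.43, adjusted p = 0.0123, difference -0.50, adjusted p = 0.0202). Which transcripts each set reads was not analysed here.

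**Figure D4:**
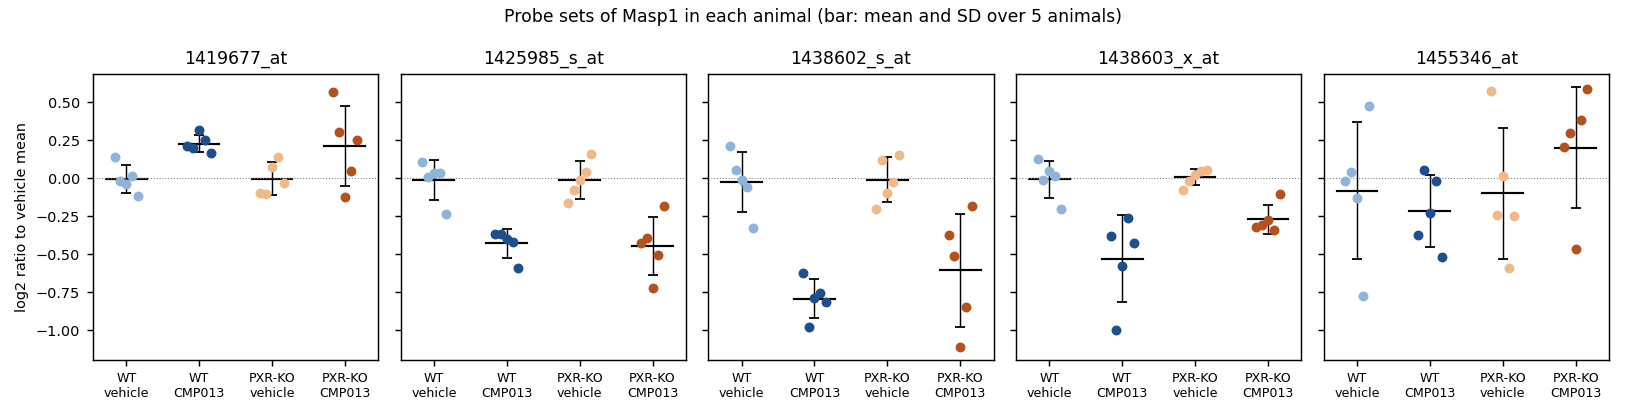
Log2 ratios of the 5 Masp1 probe sets in the 4 groups (1 point per animal, with the mean and SD of 5). In WT mice the chosen set lies above its vehicle animals and the 3 sets with an s or x mark lie below theirs, while the fifth overlaps.

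The terminal components form the membrane pore, C6 and the C8 chains starting it and C9 filling it. C9 was low in both genotypes. Treated WT mice had C9 ratios of -0.68, -2.21, -1.0, -1.41 and -1.83 and their vehicle mice -0.084, -0.014, -0.17, 0.13 and 0.16. In PXR-KO mice the ratios were -0.75, -0.74, -0.49, -1.25 and -0.44 with CMP013 and -0.28, -0.082, 0.017, 0.28 and 0.10 with vehicle. No treated animal of either genotype overlapped with its vehicle group, and WT replicate 2 was lowest, as at F11. C9 changed by -1.43 ± 0.26 (SE, adjusted p = 0.0055) in WT and by -0.74 ± 0.17 (SE, adjusted p = 0.0397) in PXR-KO mice. The second call was lost without PXR-KO vehicle replicate 2, 3, 4 or 5 or PXR-KO CMP013 replicate 1, 2 or 4 (adjusted p 0.0397 to 0.09 over the 10 cases), and the responses were not shown to differ (-0.69, adjusted p = 0.184, 95% confidence interval -1.35 to -0.021).

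C8a and C8b, neighbours on chromosome 4, fell in WT mice and were not called in PXR-KO mice. C8a ratios were -0.45, -0.94, -0.50, -0.65 and -0.81 with CMP013 and 0.067, 0.039, -0.21, 0.047 and 0.072 with vehicle in WT mice. In PXR-KO mice they were 0.38, 0.33, -0.053, 0.087 and 0.10 with CMP013 and -0.34, 0.0086, 0.071, 0.19 and 0.076 with vehicle. The treated WT animals were all low and the PXR-KO groups overlapped, with 2 of the treated animals above every vehicle animal. Its fold change was -0.67 ± 0.11 (SE, adjusted p = 0.00394) in WT and 0.17 ± 0.13 (SE, adjusted p = 0.502) in PXR-KO mice, with a difference of -0.84 ± 0.17 (SE, adjusted p = 0.003). C8b ratios were -0.56, -1.41, -0.64, -1.03 and -0.99 in treated and -0.029, 0.049, -0.12, 0.054 and 0.050 in vehicle WT mice. PXR-KO mice showed -0.0059, 0.036, -0.38, -0.54 and -0.067 with CMP013 and -0.34, -0.20, 0.046, 0.33 and 0.17 with vehicle. Again replicate 2 was lowest in WT mice and the PXR-KO groups overlapped. C8b changed by -0.93 ± 0.15 (SE, adjusted p = 0.00347) in WT mice and read -0.19 ± 0.16 (SE, adjusted p = 0.55) in PXR-KO mice. The difference of -0.74 ± 0.23 (SE, adjusted p = 0.0432) was lost as a call in 14 of 20 cases with 1 animal left out, those that kept it being WT CMP013 replicates 1 and 3, PXR-KO vehicle replicates 4 and 5 and PXR-KO CMP013 replicates 3 and 4 (adjusted p 0.024 to 0.0818).

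The third chain, C8g, a lipocalin that binds C8a and is made from a separate chromosome, showed the reverse arrangement and was taken up after its values were seen. In PXR-KO mice its ratios were -0.71, -0.47, -0.32, -0.60 and -0.45 with CMP013 and -0.037, -0.0025, 0.026, 0.035 and -0.024 with vehicle. In WT mice they were -0.067, -0.20, -0.14, -0.12 and -0.064 with CMP013 and -0.039, 0.0065, -0.0020, -0.0074 and 0.041 with vehicle. Both treated groups lay below their vehicle groups, the PXR-KO group by more. C8g fell in PXR-KO mice (-0.51 ± 0.090 SE, adjusted p = 0.0166), a call lost without PXR-KO CMP013 replicate 4 (adjusted p = 0.0519). In WT mice it was -0.12 ± 0.070 (SE, adjusted p = 0.314), and the difference of 0.39 ± 0.10 (SE, adjusted p = 0.0161), with the WT value higher, was called. C6 had wide spreads, -1.30 to -0.011 in treated and -0.30 to 0.28 in vehicle WT mice, and was called in neither genotype (-0.50, adjusted p = 0.214 in WT and -0.49, adjusted p = 0.23 in PXR-KO mice).

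The 3 complement regulators of the set, Serping1, C4bp and Cfi, fell in WT mice and their responses differed between the genotypes. Serping1, the C1 inhibitor, which also blocks kallikrein and activated F12, had WT ratios of -0.25, -0.50, -0.32, -0.33 and -0.56 with CMP013 and 0.038, -0.017, -0.069, 0.017 and 0.036 with vehicle. Its PXR-KO ratios were 0.068, -0.020, -0.038, -0.022 and -0.039 with CMP013 and -0.056, -0.10, 0.061, 0.080 and 0.011 with vehicle. These values parted the WT groups and left the PXR-KO groups overlapping. Serping1 changed by -0.39 ± 0.086 (SE, adjusted p = 0.0132) in WT and read -0.010 ± 0.076 (SE, adjusted p = 0.958) in PXR-KO mice, a difference of -0.38 ± 0.10 (SE, adjusted p = 0.0179). That difference lost its call with quantile normalization and without the 4 vehicle animals (limma, adjusted p up to 0.212). C4bp, a cofactor for the cleavage of C4b, had ratios of -0.31, -0.50, -0.34, -0.32 and -0.45 in treated and 0.00093, 0.011, -0.027, 0.029 and -0.012 in vehicle WT mice. The corresponding PXR-KO values were 0.33, 0.13, 0.018, 0.21 and 0.061 and, with vehicle, -0.019, -0.20, 0.076, 0.040 and 0.092. WT vehicle values lay close to 0 and all treated values well below them, and the PXR-KO groups overlapped. C4bp changed by -0.39 ± 0.074 (SE, adjusted p = 0.00724) in WT mice, with 0.15 ± 0.10 (SE, adjusted p = 0.41) in PXR-KO mice and a difference of -0.54 ± 0.11 (SE, adjusted p = 0.00319). Cfi, the protease that cuts C3b and C4b, fell by less (-0.25 ± 0.070 SE, adjusted p = 0.041, ratios -0.33 to -0.20 against -0.038 to 0.045). The WT call of Cfi was lost without any 1 of the 10 animals (adjusted p 0.0635 to 0.0896). Its difference of -0.30 ± 0.088 (SE, adjusted p = 0.0362) was lost without 12 of the 20, which were WT vehicle replicates 2, 4 and 5, WT CMP013 replicates 2 and 5, PXR-KO vehicle replicates 1, 3 and 5 and PXR-KO CMP013 replicates 1, 2, 4 and 5 (adjusted p 0.0262 to 0.0655).

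Set against each other, the responses of the genotypes differed at 17 of the 36 genes. The WT response was lower at 15, where 6.19% of all genes were, and higher at 2 (C2 and C8g), where 7.37% were. These 15 are F5, F9, F11, F12, Klkb1, Proc, Serpinf2, C1s1, Mbl1, Cfb, C8a, C8b, Serping1, C4bp and Cfi, each of which also fell in WT mice. Another 5 genes fell in WT mice without a called difference (F7, Fgb, Serpind1, C1ra and C9), and 13 were called in no comparison. The count of 17 was 6 with quantile normalization and 8 without the 4 vehicle animals, and F5, F9, C1s1, C2 and Cfb were called under each of the 10 alternative settings (C1s1 under all but that without s-marked probe sets, which could not test it) and with each animal left out. Each other called difference was lost under at least 1 of these settings. Those of Proc, C8a and C4bp were lost with quantile normalization alone, and that of C8g only without the 4 vehicle animals.

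By class, genes fell in WT mice among clotting factors, anticoagulants, fibrinolysis and complement. Of 13 clotting factors 7 fell and none rose, with a median of -0.29. Of 16 complement genes 10 fell and 1 rose, with a median of -0.39. Of 4 anticoagulants 2 fell and 1 rose (median -0.21), and of 3 fibrinolysis genes 1 fell (median -0.22). Of all genes 8.01% fell and 9.71% rose in WT mice, and counts in classes of 4 and 3 genes say nothing about those classes. In PXR-KO mice both calls, C9 and C8g, were complement genes (2.15% of all genes fell and 2.48% rose). The medians of the 4 classes in PXR-KO mice lay between -0.035 and 0.0044. In single animals the median over the clotting factors was -0.37 to -0.21 in treated and -0.030 to 0.021 in vehicle WT mice, and over complement -0.50 to -0.25 against -0.048 to 0.020. The corresponding ranges in PXR-KO mice, -0.12 to 0.027 against -0.070 to 0.048 and -0.089 to 0.075 against -0.094 to 0.12, overlapped. These class values are descriptions, the classes were not tested against each other, and their ranges in treated WT mice overlap.

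**Figure D5:**
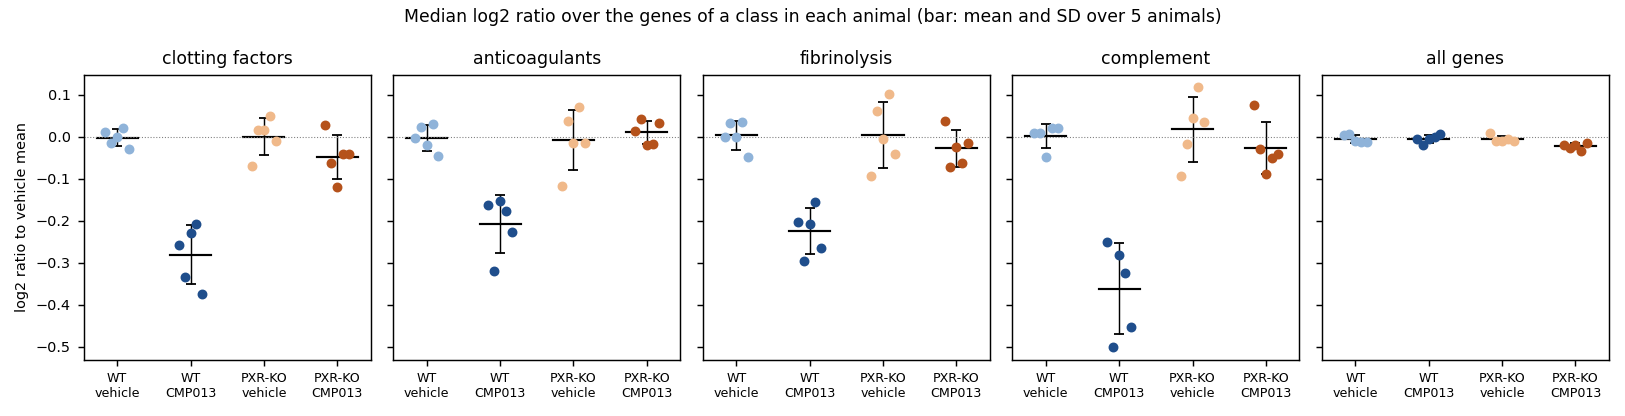
Median log2 ratio over the genes of each class, and over all 18193 genes, in each animal of the 4 groups, with the mean and SD of 5 animals. Treated WT animals lie below their vehicle animals in all 4 classes, where the PXR-KO groups overlap, and the medians over all genes lie between -0.033 and 0.0075.

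Other genes of these pathways were counted in the same way. Alternative settings and left-out animals were run only for the coagulation and complement genes of the set. How firmly the calls of the further lists and markers hold, here and below, was therefore not tested. Of 17 further coagulation and fibrinolysis genes 1 fell and 2 rose in WT mice, and 2 rose in PXR-KO mice (2.48% of all genes). Beside the 8.01% and 9.71% of all genes that fell and rose in WT mice, such counts in so short a list say nothing about the list, and the genes are named for their own values. Proz, protein Z, which helps to inhibit F10, fell in WT mice (-0.55, adjusted p = 0.00168). Lman1, a receptor that carries F5 and F8 out of the endoplasmic reticulum, rose (0.50, adjusted p = 0.00772), as did the plasminogen receptor Plgrkt (0.64, adjusted p = 0.00761), and the responses differed for all 3 genes (-0.53, adjusted p = 0.00997, 0.71, adjusted p = 0.00405, and 0.58, adjusted p = 0.0408). Plaur, the urokinase receptor, rose in PXR-KO mice (0.82, adjusted p = 0.0429). In the vitamin K cycle, Vkorc1l1, a relative of the warfarin target, rose in WT mice (0.68, adjusted p = 0.00186), and the carboxylase Ggcx, called in neither genotype, differed between them (0.50, adjusted p = 0.0249).

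Of 16 further complement genes 6 fell and 1 rose in WT mice (8.01% and 9.71% of all genes) and none passed the test in PXR-KO mice, where limma gave 0 lower and 2 higher at an unadjusted p under 0.05. The collectins Colec10 and Colec11, which start the lectin pathway, fell (-0.77, adjusted p = 0.00531, and -0.78, adjusted p = 0.00712), as did the ficolin Fcna (-0.48, adjusted p = 0.00627), while Fcnb rose (0.66, adjusted p = 0.0428). The responses of Fcna and Fcnb differed between the genotypes (-0.82, adjusted p = 0.000828, and 0.99, adjusted p = 0.02).

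Of 18 genes for secreted proteins of hepatocytes outside these cascades 2 fell in WT mice and none rose, with a median of -0.071, a count near the 8.01% and 9.71% of all genes, and none was called in PXR-KO mice (by limma 1 lower and 3 higher at an unadjusted p under 0.05). Both were heavy chains of the inter-alpha-trypsin inhibitors, Itih3 (-0.62, adjusted p = 0.00179) and Itih1 (-0.25, adjusted p = 0.0443), and together with Itih2 and Itih4 they were the 4 genes of that list whose responses differed (differences -0.92 to -0.35, adjusted p 0.000123 to 0.0407). The hepatocyte markers Alb, Ttr, Apoa1, Cps1 and Tat gave 0 of 5 calls in each of the 3 comparisons by limma, and at an unadjusted p under 0.05 also 0 in both genotypes and 1 in the difference. Their median was -0.16 to -0.017 in treated and -0.072 to 0.16 in vehicle WT animals, and -0.21 to -0.087 and -0.15 to 0.11 in PXR-KO animals, with overlap in both genotypes. Acute phase genes, some of which hepatocytes raise in inflammation, were split in WT mice, 4 of 13 lower and 4 higher (8.01% and 9.71% of all genes), and 4 rose in PXR-KO mice (2.48% of all genes). Orm3 rose in both genotypes (3.14, adjusted p = 9.11e-05 in WT and 2.48, adjusted p = 0.00429 in PXR-KO mice), Apcs rose in WT mice (0.84, adjusted p = 0.000916), and Saa3 and Lbp rose in PXR-KO mice alone among the calls (1.91, adjusted p = 0.00552, and 1.69, adjusted p = 0.0168). At Saa3 and Lbp the responses differed (-2.50, adjusted p = 0.000297, and -1.75, adjusted p = 0.00369).

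Of 11 genes for hepatocyte transcription factors 5 fell in WT mice (8.01% of all genes), none rose, and 1 fell in PXR-KO mice (2.15% of all genes). Foxa3 and Hnf4a fell in WT mice (-0.60, adjusted p = 0.00848, and -0.45, adjusted p = 0.0199), and their PXR-KO values were 0.51 (adjusted p = 0.0787) and 0.37 (adjusted p = 0.119), so that the differences were -1.11 (adjusted p = 0.000688) and -0.82 (adjusted p = 0.00202). Stat5b fell in both genotypes (-0.75, adjusted p = 0.00167 in WT and -0.43, adjusted p = 0.0432 in PXR-KO mice). Onecut1 fell in WT mice (-1.50, adjusted p = 0.0154). Whether these changes have a part in those of the coagulation and complement genes was not tested.

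Some markers of other liver cells moved with the treatment as well. Beside the counts below, 8.01% of all genes fell and 9.71% rose in WT mice. In PXR-KO mice 2.15% fell and 2.48% rose. Counts in lists this short are not read as results about a cell type. Of 5 markers of sinusoidal endothelial cells 3 fell in WT mice, with medians of -0.61 to -0.48 in treated and -0.13 to 0.13 in vehicle animals, and in PXR-KO mice 1 fell and 1 rose (-0.21 to -0.036 against -0.13 to 0.059). Of 5 markers of stellate cells and fibroblasts 2 fell in WT mice (-0.81 to -0.17 against -0.11 to 0.18), and of 5 of Kupffer cells 2 fell (-0.45 to -0.18 against -0.30 to 0.26). Of 3 neutrophil markers 2 rose in WT mice (0.57 to 1.45 against -0.40 to 0.36) and 1 in PXR-KO mice (-0.070 to 3.27 against -1.0 to 0.29). Of 6 markers of recruited macrophages and monocytes 1 rose in WT mice (-0.31 to 0.15 against -0.32 to 0.19) and 2 in PXR-KO mice (0.26 to 0.53 against -0.18 to 0.10). Of 2 erythroid markers 1 fell and 1 rose in WT mice and 1 fell in PXR-KO mice. Markers of cholangiocytes (4 genes) and adipocytes (3 genes) had no call by limma in any comparison, with 0 and 3 values at an unadjusted p under 0.05 over both genotypes. The part of these cells in the changes described above was not tested.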

How the data were processed

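Livers of 20 mice in 4 groups of 5 were profiled on 1 array per animal, and groups were taken from the labels. The authors made log ratios in Rosetta Resolver, and the deposited values are log10 ratios of each animal's probe set intensity to the vehicle mean intensity (5 animals) of its genotype. How that program corrected background and scaled arrays is not stated, intensities were not used, and no probe set could be called absent. The number of arrays limits the precision. The log base was read from the values and the methods of the study, and log10 values were multiplied to give log2.

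Each genotype was fitted with limma 3.58.1 (lmFit and eBayes, R 4.3.3) on 10 arrays, and the contrast of both responses on all 20. P-values were adjusted by Benjamini-Hochberg over 45037 probe sets, of which 34945 name 1 gene, 932 several and 9160 none in the platform annotation, which can be old. A gene is represented by 1 probe set, preferring sets without an s or x mark and, among these, the smallest mean SD within the vehicle groups. The fits were tried on simulated ratios with independent noise, which lack the shared vehicle mean and the larger spread of treated arrays. That trial does not show how well calls hold in these data. Members, classes, pathway lists and marker lists were chosen with earlier results of these data known, so no list was tested. Values in every animal were given for the 16 called genes with the smallest adjusted p over the 3 comparisons, including at least 1 of each class, and up to 4 called genes were named from each pathway list. Pros1, C8g and the probe sets of Masp1 and Masp2 were added after their values were seen. Alternatives were quantile normalization of the log2 ratios, a shift of each array's median, array weights, another variance prior and 1 fit for all groups. Others were a replicate block, a fold minimum of 0.32 log2 units, other rules for probe sets, and animals left out. The labels name no scan or extraction batch. Promoters came from the RefSeq table of GRCm38.p6, and searches and counts were run in Python 3.11.15 with pandas 2.3.3 and numpy 2.4.6. Replicate numbers were treated as names only. Deviations of same-numbered vehicle and treated animals of a genotype correlated between -0.24 and 0.065. That check cannot tell whether the numbers follow an order of processing. The most correlated pair was 2 and 4 in WT CMP013 (0.59, as was the next pair), PXR-KO vehicle (0.15) and PXR-KO CMP013 (0.57). In WT vehicle it was 3 and 4 (0.11).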

Additional observations from a re-analysis of the deposited data

Results flagged for a closer look

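Of 144 groups of 5 animals examined, 4 held 1 animal that stood apart by Dixon's test (gap over range above 0.71), and chance flags about 1 group in 20. Kng1 in WT CMP013 replicate 5 was -0.25, beside -0.16 to -0.12 in the other 4 animals (gap over range 0.744). Masp2 in WT CMP013 replicate 2 was -0.33, beside -0.21 to -0.17 (0.723). C8a in WT vehicle replicate 3 was -0.21, beside 0.039 to 0.072 (0.884). Serping1 in PXR-KO CMP013 replicate 1 was 0.068, beside -0.039 to -0.020 (0.819).

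At 17 genes the WT and PXR-KO responses differed by limma's test of the difference itself. In clotting these were F11 (-1.28), F5 (-0.91), F9 (-0.58), F12 (-0.40) and Klkb1 (-0.34), with Proc (-0.50) among the anticoagulants and Serpinf2 (-0.36) in fibrinolysis. In complement they were C2 (1.09), Cfb (-0.89), C8a (-0.84), C8b (-0.74), C1s1 (-0.73), C4bp (-0.54), Mbl1 (-0.45), C8g (0.39), Serping1 (-0.38) and Cfi (-0.30). F5 and Cfb are those at which all treated WT animals lay below and all treated PXR-KO animals above their vehicle animals.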

How the results depend on the processing

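Counts of called genes were 22 in WT mice, 2 in PXR-KO mice and 17 for the difference. Quantile normalization of the log2 ratios, which gives all arrays the same spread, gave 11, 1 and 6. Leaving out 4 vehicle animals (WT 3 and 4, PXR-KO 2 and 4) gave 12, 0 and 8. With trend and robust variances the PXR-KO count was 0, and with all 4 groups in 1 fit it was 5. Replicate numbers did not pair the animals (no treated animal correlated best with its own number), and with the number as a replicate block the counts were 12, 0 and 12. Where limma gave 0 in PXR-KO mice, 8 (trend and robust variances), 5 (block) and 5 (without the 4 vehicle animals) of 36 genes had an unadjusted p under 0.05. Leaving out 1 animal at a time gave 17 to 20 in WT mice, 0 to 2 in PXR-KO mice (0 without PXR-KO CMP013 replicate 4) and 12 to 17 for the difference. Median log2 fold changes moved from -0.32 to -0.27 in WT, from -0.051 to -0.017 in PXR-KO mice and from -0.26 to -0.21 for the difference in these cases, and kept their sign under all other alternatives. Calls kept under every alternative that could test them were 11 of 22, 0 of 2 and 5 of 17. Masp1 in WT mice turned from 0.23 to -0.77 with the probe set of the largest fold change and to -0.32 with the mean of its probe sets, and the difference of Masp2 turned from 0.067 to -0.50 with the probe set of the largest fold change, since other probe sets were then read. The other causes were not tested. With 5 animals a group, and signals of unknown height over background, small changes and absent transcripts cannot be told from these ratios.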
